A study of Homo sapiens with 6 samples.

Results

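Nuclear-encoded respiratory chain subunits were followed in 6 RNA libraries of cells labelled HL-60, a human acute myeloid leukaemia line. They were taken by name, as the symbols of complex I (NDUFA, NDUFB, NDUFC, NDUFS and NDUFV followed by a number, and NDUFAB1), complex II (SDHA to SDHD), complex III (UQCR symbols and CYC1), complex IV (COX4 to COX8 symbols) and complex V (ATP5 symbols), with CYCS for cytochrome c. Of 43424 symbols listed, 93 had such a name, and 84 of these reached the minimum of 60 counts summed over the 6 libraries and are the members. All 84 members are protein-coding genes, and all 84 passed the low-count filter, among 12844 genes tested. The 9 symbols left out were the tissue-restricted isoform genes COX4I2 (4 counts in all), COX6A2 (40 counts), COX6B2 (5 counts), COX7A1 (5 counts) and COX7B2 (0 counts), a readthrough symbol, a pseudogene and a pair of noncoding neighbours. Just inside the minimum stood COX8C with 69 counts, and just outside it COX6A2.

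The tested cells had been kept for 6 months in slowly rising amounts of CIP, a plant extract made from Corydalis incisa (Thunb.) Pers., raised from 2 to 20 µg/ml, and the series calls them resistant. The comparison cells had been kept with DMSO for the same 6 months, and both carry the genotype label WT. There were 3 libraries of each kind, made with a QuantSeq kit, which counts transcripts by their 3′ ends. Whether replicates were separate cultures is not stated, so p-values cover the spread among these libraries, which may be technical in part.

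As background, the respiratory chain passes electrons from NADH and succinate through complexes I and II to ubiquinone, and on through complex III, cytochrome c and complex IV to oxygen. Complexes I, III and IV pump protons across the inner mitochondrial membrane, and complex V, the ATP synthase, uses the gradient to make ATP. Most subunits are encoded in the nucleus and imported, while a small set of membrane core subunits of complexes I, III, IV and V is encoded in mitochondrial DNA. Myeloid leukaemia cells are known to depend in part on this oxidative phosphorylation.

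The labels were read against known HL-60 markers before any subunit. HL-60 is known for abundant myeloperoxidase and for extra copies of MYC. MPO counts were 77887, 82824 and 84917 under the CIP label and 15, 9 and 9 under the DMSO label. MYC counts were 2337, 3288 and 2315 under the CIP label and 468, 414 and 349 under the DMSO label. In MPO and MYC the DMSO-labelled libraries thus go against this background. The libraries are therefore named by label throughout, and rose and fell mean higher or lower with the CIP label. Of the 7 markers listed for HL-60 and promyelocytes, 4 rose and 3 fell. Their summed level was 9674 to 10234 CPM with the CIP label and 1644 to 1765 CPM with the DMSO label. With the DMSO label most of it came from listed markers other than MPO and MYC. The summed level of 6 monocyte and macrophage markers was 35.4 to 48.4 CPM with the CIP label and 446.8 to 479.8 CPM with the DMSO label, with CD14 at 0 counts in each DMSO-labelled library. That of 7 eosinophil, basophil and mast cell markers was 6242 to 6576 CPM against 502 to 518 CPM; nearly all of it came from PRG2 with the CIP label (6249 CPM, against 1.41 CPM) and most of it from RNASE2 with the DMSO label (90.4 CPM with the CIP label, against 395 CPM). Of these markers 3 rose and 3 fell, with EPX, CLC and CPA3 at 0 with the DMSO label and TPSAB1 at 0 with the CIP label. The summed levels were 3.73 to 4.63 CPM against 87.5 to 108.0 CPM for 7 lymphoid markers, 4.03 to 6.24 CPM against 5.20 to 6.54 CPM for 7 erythroid and megakaryocyte markers, and 21.3 to 37.8 CPM against 67.4 to 117.7 CPM for 9 epithelial, fibroblast and endothelial markers, with MS4A1, PF4, PPBP and CDH5 at 0 in all 6 libraries. The part of these cell-type differences in the results on the respiratory chain was not tested. In bulk samples, a different mix of cells and a different amount of RNA per cell cannot be told apart. Total counts were 9314584 to 10868396 in the CIP-labelled libraries and 8143657 to 9759687 in the DMSO-labelled ones.

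More subunit genes were higher than lower with the CIP label. Levels are CPM, counts per TMM-scaled library total in the usual unit, and a gene was called at an edgeR adjusted p under 0.05. Of the 84 members, 50 rose, 20 fell and 14 were not called, so 83.3% were called, where 73.1% of all tested genes were. The share that rose was 59.5% of members, against 34.9% of all tested genes, and the share that fell was 23.8%, against 38.2%. In a test for a change beyond 1.2-fold, 44 members were higher and 11 lower, where 29.7% of all tested genes were higher and 33.9% lower. The libraries of the groups did not overlap for 69 members, or 82.1%, where this held for 75.5% of all tested genes. The median log2 fold change (CIP over DMSO) was 0.39 over members and -0.03 over all tested genes.

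The split into higher and lower depends on the scaling. With library totals alone the same 84 members gave 40 higher, 29 lower and 15 not called, so that 58.0% of called members were higher, against 71.4% with TMM. That setting moved the median of all tested genes by -0.23, to -0.26, and the members' median to 0.16. Relative to the median of all genes, the members' median stood 0.42 higher under both settings. Scaling moves all genes by nearly the same amount, so this difference had to stay and is no check on the scaling. As a share of all counts before scaling, the members summed to 2.05% to 2.11% in the CIP-labelled libraries and 2.09% to 2.198% in the DMSO-labelled ones.

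**Figure D1:**
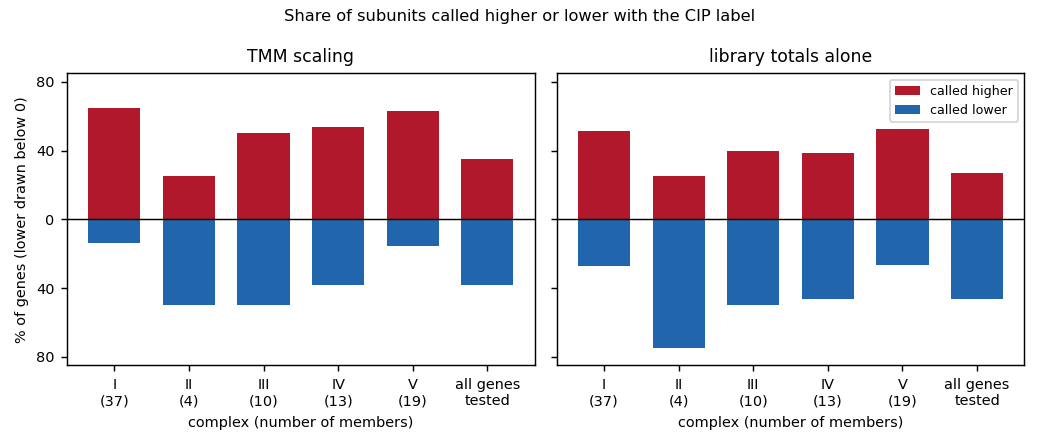
Share of members called higher (above 0) and lower (below 0) with the CIP label in each complex and over all 12844 tested genes, with TMM scaling on the left and library totals alone on the right. Complexes I and V have the tall upper bars under both scalings, and complex II has 1 higher and 2 lower members on the left and 1 higher and 3 lower on the right.

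By complex, the 37 members of complex I divided into 24 higher, 5 lower and 8 not called, with a median log2 fold change of 0.44 (19 higher, 10 lower and 0.21 with library totals alone). The 19 members of complex V gave 12 higher, 3 lower and 4 not called, also with a median of 0.44 (10 higher, 5 lower and 0.21 with library totals alone). The 13 members of complex IV, with NDUFA4 counted there, gave 7 higher, 5 lower and 1 not called, with a median of 0.16 that turned to -0.067 with library totals alone (5 higher and 6 lower). The 10 members of complex III were split into 5 higher and 5 lower, with a median of 0.10 that turned to -0.13 with library totals alone (4 higher and 5 lower). The 4 members of complex II gave 1 higher, 2 lower and 1 not called, with a median of -0.16 (1 higher, 3 lower and -0.39 with library totals alone).

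**Figure D2:**
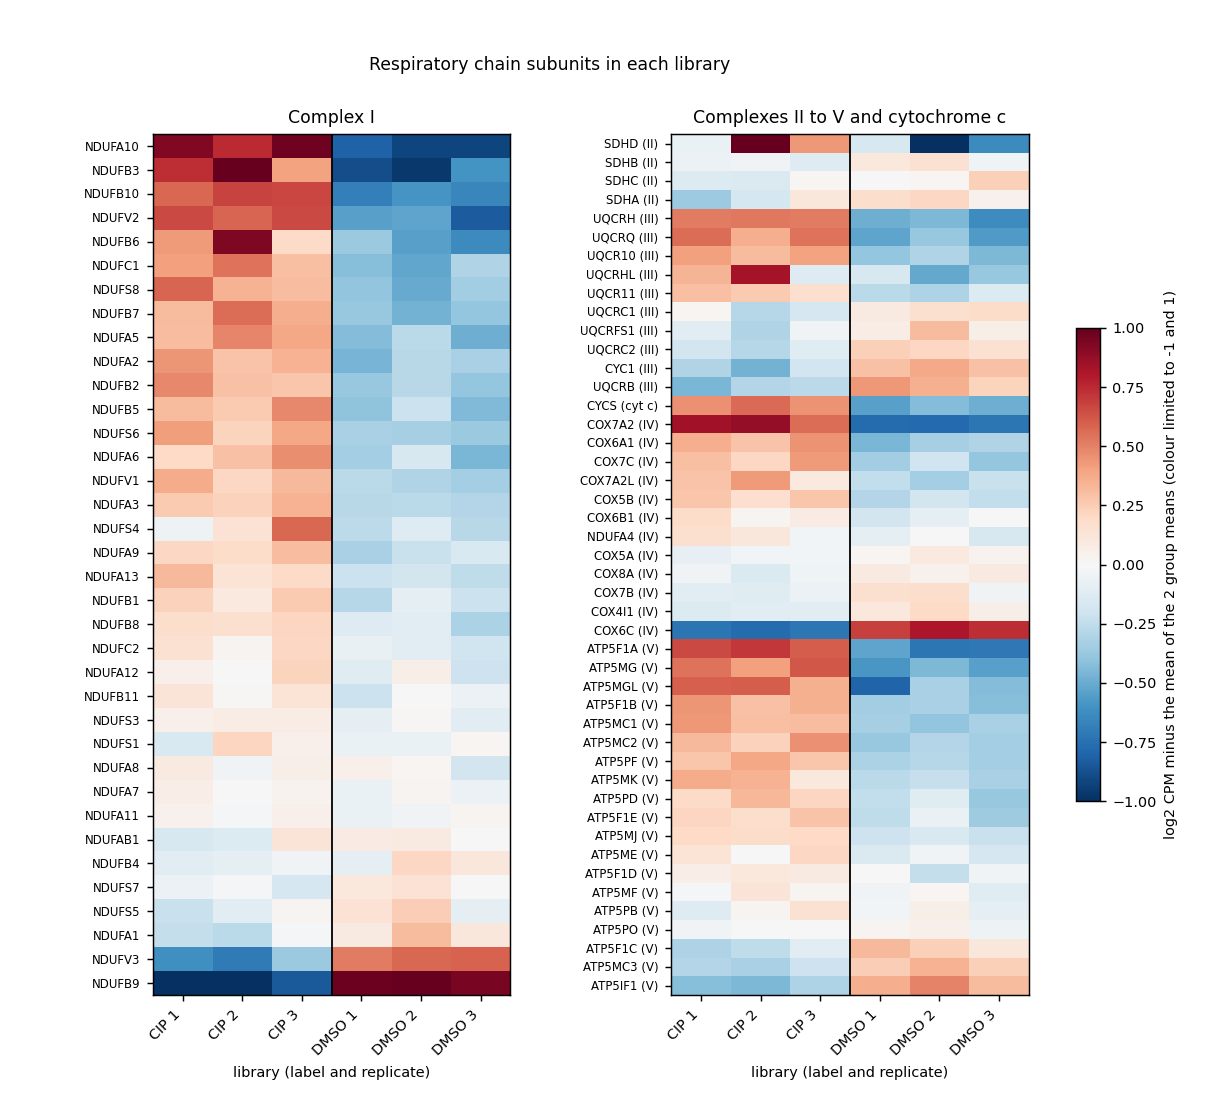
Level of each of 82 members in each library, as log2 CPM minus the mean of its group means, with the colour limited to -1 and 1; the 3 CIP-labelled libraries are left of the black line and the 3 DMSO-labelled ones right of it. COX8C, with 0 counts in the CIP-labelled libraries, is among those left out. Most rows of complex I are red on the left, NDUFB9 and COX6C are the strongest blue rows there, and CIP replicate 2 stands above its group in NDUFB3, NDUFB6 and SDHD.

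Promoter windows of 4 members that moved in opposite directions are shown here because subunit genes are known to share binding motifs of NRF1, ETS and YY1 factors near their starts. NDUFA10 is an accessory subunit of complex I, and NDUFV3 is a small accessory subunit of its NADH-binding part. Among the members considered, each with a single window, NDUFA10 had the largest rise and NDUFV3 the largest fall. Not every member was considered. SDHD, a membrane anchor of complex II, rose, and ATP5F1C, the central stalk subunit of complex V, fell. Each run is the 250 bases before the gene's start, 5′ to 3′ on the gene's strand, from RefSeq on GRCh38.p14, with motif matches on either strand in capitals. NDUFA10 lies at chr2:240025343-240025592, minus strand, NDUFV3 at chr21:42893059-42893308, plus strand, SDHD at chr11:112086623-112086872, plus strand and ATP5F1C at chr10:7787927-7788176, plus strand.
NDUFA10: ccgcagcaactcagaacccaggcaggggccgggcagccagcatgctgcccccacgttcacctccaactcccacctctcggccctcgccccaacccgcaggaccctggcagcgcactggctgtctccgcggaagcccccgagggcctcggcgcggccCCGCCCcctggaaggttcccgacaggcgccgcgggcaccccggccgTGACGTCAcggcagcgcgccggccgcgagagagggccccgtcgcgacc
NDUFV3: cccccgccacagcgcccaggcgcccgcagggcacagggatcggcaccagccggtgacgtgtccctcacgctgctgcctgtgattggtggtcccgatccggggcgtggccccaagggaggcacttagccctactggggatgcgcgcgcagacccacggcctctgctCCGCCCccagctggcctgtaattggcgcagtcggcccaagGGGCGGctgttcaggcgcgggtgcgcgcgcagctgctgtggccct
SDHD: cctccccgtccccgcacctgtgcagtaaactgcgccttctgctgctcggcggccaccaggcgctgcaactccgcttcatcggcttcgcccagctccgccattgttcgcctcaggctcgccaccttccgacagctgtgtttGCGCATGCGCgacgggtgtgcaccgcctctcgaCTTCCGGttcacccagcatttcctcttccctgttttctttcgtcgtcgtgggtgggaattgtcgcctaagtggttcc
ATP5F1C: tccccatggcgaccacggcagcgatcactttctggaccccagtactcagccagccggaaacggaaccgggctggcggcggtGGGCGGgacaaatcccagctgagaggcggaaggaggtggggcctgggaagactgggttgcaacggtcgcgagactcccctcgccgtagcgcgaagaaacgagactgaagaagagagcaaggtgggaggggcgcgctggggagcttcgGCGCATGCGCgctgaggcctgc

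The window of NDUFA10 holds the cyclic AMP response element TGACGTCA at positions -48 to -41 before its start and an SP motif, GGGCGG, at -94 to -89. The window of NDUFV3 holds SP motifs at -85 to -80 and at -45 to -40. SDHD has overlapping NRF1 matches (GCGCANGCG) at -110 to -101 and an ETS match (CCGGAAG) at -77 to -71. ATP5F1C has overlapping NRF1 matches at -22 to -13 and an SP motif at -169 to -164. In the windows shown, the same NRF1 letters thus stand before SDHD, which rose, and before ATP5F1C, which fell. NDUFB3 and ATP5IF1, with the next largest rise and fall after NDUFA10 and NDUFV3 among the members considered, are not shown. Their windows hold SP motifs alone, so this likeness depends on which windows are shown. NDUFB9 and COX6C fell by more than NDUFV3 (log2 fold changes of -1.97 and -1.49, against -1.12) and were not among the members considered. The rise of SDHD rests on few counts.

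Over the whole set, RefSeq windows of 250 bases before to 50 after a start were found for 69 of 84 members, 82 windows in all. The NRF1 motif was in 29.3% of member windows and in 9.64% of 22199 windows of protein-coding genes, the ETS motif in 26.8% against 12.8%, and the YY1 motif AAGATGG in 23.2% against 6.04%. The SP motif was in 61.0% against 56.3%, the E-box CACGTG in 8.54% against 8.34% and TGACGTCA in 6.10% against 2.26%. By call, the NRF1 motif was in 13 of 57 windows of members that rose, 5 of 12 of members that fell and 6 of 13 of members not called. The ETS motif was in 16, 3 and 3 of these windows and the YY1 motif in 12, 2 and 5. A match here is a run of letters and not a measured binding site.

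Complex I starts with its catalytic core, part of which is nuclear-encoded. NDUFV2, an iron-sulfur subunit of the NADH-binding part, stood at 249, 237 and 249.8 CPM with the CIP label and at 108, 109 and 88.8 CPM with the DMSO label, a log2 fold change of 1.26 ± 0.08 (± SE, adjusted p = 1.4e-16). NDUFS8, which carries iron-sulfur clusters on the way to ubiquinone, stood at 119, 101 and 98.6 CPM with the CIP label and at 60.4, 56.1 and 62.5 CPM with the DMSO label, a change of 0.83 ± 0.09 (± SE, adjusted p = 2.2e-10). NDUFV1, which binds FMN and oxidises NADH, stood at 215, 192 and 208 CPM with the CIP label and at 138, 135 and 132 CPM with the DMSO label, a change of 0.60 ± 0.07 (± SE, adjusted p = 1.7e-09). In these genes each CIP-labelled library lay above each DMSO-labelled one. NDUFS1, NDUFS3 and NDUFS7, further core subunits, had log2 fold changes of 0.09 (adjusted p = 0.4), 0.13 (adjusted p = 0.062) and -0.17 (adjusted p = 0.13) and were not called.

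The accessory subunits surround this core. Of 11 members of the NDUFB series, which sit in the membrane arm, 9 rose, 1 fell and 1 was not called, with a median log2 fold change of 0.70 (7 higher, 2 lower and 0.47 with library totals alone). NDUFB3 stood at 76.7, 115 and 60.8 CPM with the CIP label and at 24.9, 23.6 and 30.4 CPM with the DMSO label, a change of 1.68 ± 0.28 (± SE, adjusted p = 0.0028). CIP replicate 2 was the highest of its group, and without it the change was 1.399. NDUFB10 stood at 172, 185 and 184 CPM with the CIP label and at 71.9, 76.7 and 73.5 CPM with the DMSO label, a change of 1.28 ± 0.07 (± SE, adjusted p = 3.9e-17), with close replicates. The exception was NDUFB9 (chromosome 8, 124539123 to 124549979 on GRCh38), an LYR-motif protein that holds an acyl carrier protein in the complex. NDUFB9 stood at 219, 236 and 265 CPM with the CIP label and at 936, 975 and 913 CPM with the DMSO label, a change of -1.97 ± 0.07 (± SE, adjusted p = 2.2e-23). This was the largest fall among members with counts in both groups.

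Of the other 19 accessory subunits, 12 rose, 3 fell and 4 were not called (9 higher and 6 lower with library totals alone). NDUFA10 (chromosome 2, 239892442 to 240025342), whose window is shown above, stood at 161, 142 and 166 CPM with the CIP label and at 48.2, 44.8 and 44.9 CPM with the DMSO label. Its log2 fold change of 1.77 ± 0.08 (± SE, adjusted p = 1.5e-19) was the largest rise among members. NDUFV3, its counterpart in that display, stood at 61.5, 57.8 and 72.8 CPM with the CIP label and at 135, 140.4 and 141 CPM with the DMSO label, a change of -1.12 ± 0.08 (± SE, adjusted p = 5.4e-14). NDUFA1, a small membrane subunit, stood at 308, 300.7 and 360.4 CPM with the CIP label and at 386, 452 and 393 CPM with the DMSO label, a change of -0.35 ± 0.07 (± SE, adjusted p = 7.4e-05). NDUFAB1, the mitochondrial acyl carrier protein, is shared with fatty acid synthesis and was not called, at -0.11. Rises and falls therefore stood side by side within the accessory set. Groups did not overlap for NDUFA10, NDUFV3 and NDUFA1, which was a condition of their being named.

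**Figure D3:**
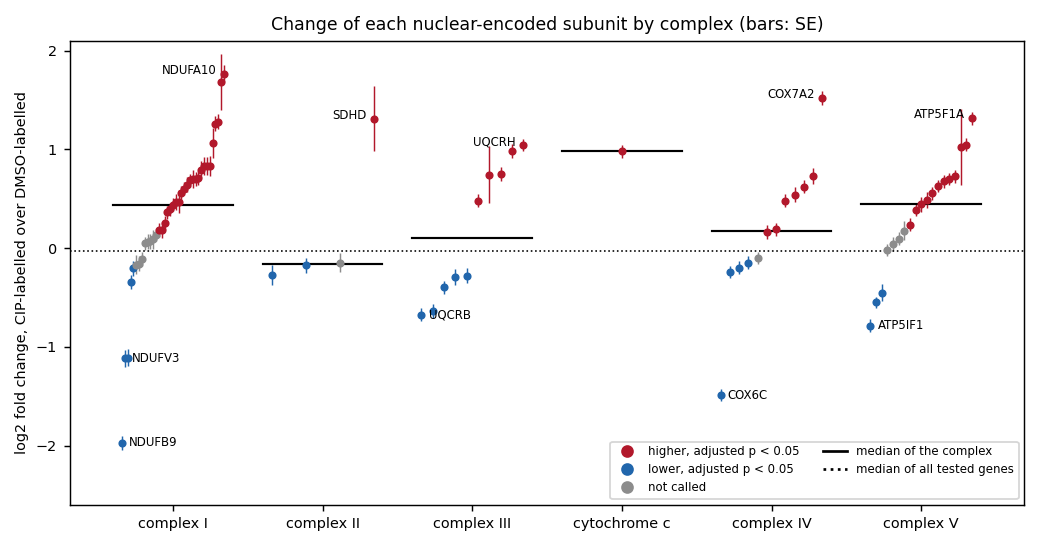
Log2 fold change (CIP-labelled over DMSO-labelled) of 83 members by complex, ordered within each; bars are SE, solid lines the median of the complex and the dotted line the median of all tested genes (-0.03). COX8C is left out for its 0 counts. Complex I runs from NDUFB9 at -1.97 to NDUFA10 at 1.77, and complex III splits into members above and below 0 with none near it.

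Complex II, succinate dehydrogenase, is the only complex with no mitochondrially encoded subunit. SDHA, the flavoprotein, stood at 51.6, 58.8 and 71.7 CPM with the CIP label and at 75.2, 76.7 and 68.3 CPM with the DMSO label, a log2 fold change of -0.27 ± 0.10 (± SE, adjusted p = 0.015). Its groups overlapped, and without CIP replicate 1 the change was -0.16 and no longer called. SDHB, the iron-sulfur subunit, had 55.4, 56.3 and 52.6 CPM with the CIP label against 62.0, 64.0 and 55.9 CPM with the DMSO label and was not called (edgeR adjusted p = 0.16). The membrane anchor SDHC stood at 109, 108 and 122 CPM with the CIP label and at 119.7, 121 and 141 CPM with the DMSO label, a change of -0.18 ± 0.08 (± SE, adjusted p = 0.045), a call that 8 of 17 other settings did not give. The other anchor, SDHD, had few counts. It stood at 7.40, 21.1 and 10.5 CPM with the CIP label and at 6.93, 3.84 and 4.98 CPM with the DMSO label, a change of 1.31 ± 0.33 (± SE, adjusted p = 0.0018), and without CIP replicate 2, the high library, the change was 0.78. SDHD, SDHC and SDHA have 7, 5 and 4 named pseudogenes in RefSeq, and how reads shared with them were counted was not stated.

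In complex III the 4 core and cofactor-bearing subunits all fell, while 5 of the 6 small subunits rose (4 with library totals alone). Over all tested genes 34.9% rose and 38.2% fell. In the test for a change beyond 1.2-fold, 2 of the 4 core genes were lower, and 5 small subunits were higher and 1 lower. CYC1 of the core and UQCRB of the small subunits lie on chromosome 8, where 76.9% of other tested genes fell. The part of role in this split was not tested. CYC1, cytochrome c1, stood at 117, 104 and 126 CPM with the CIP label and at 177, 187 and 176 CPM with the DMSO label, a log2 fold change of -0.64 ± 0.07 (± SE, adjusted p = 2.4e-09). UQCRFS1, the Rieske iron-sulfur protein, stood at 111, 96.9 and 116 CPM with the CIP label and at 125, 148 and 124 CPM with the DMSO label, a change of -0.30 ± 0.08 (± SE, adjusted p = 0.0017). The core protein UQCRC2 stood at 241, 225 and 252 CPM with the CIP label and at 323, 317 and 305 CPM with the DMSO label, a change of -0.40 ± 0.07 (± SE, adjusted p = 1.9e-06). In each of these genes the groups did not overlap, which for UQCRC2 was a condition of being named. UQCRC1, the other core protein, named to complete the set, changed by -0.28 (adjusted p = 0.0013). Summed over the 4 genes, the level was 594 ± 43.6 CPM with the CIP label and 786 ± 24.0 CPM with the DMSO label (SD, n = 3 each). Their shares of that sum were similar, with UQCRC2 at 40.4% against 40.1% and CYC1 at 19.5% against 22.9%.

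Among the small subunits of complex III, UQCRH, the acidic hinge protein beside cytochrome c1, stood at 1081, 1087 and 1084 CPM with the CIP label and at 538, 552 and 487 CPM with the DMSO label. Its log2 fold change was 1.04 ± 0.06 (± SE, adjusted p = 9.7e-17), and the CIP-labelled libraries differed by only a few CPM. UQCRQ stood at 425, 371 and 419 CPM with the CIP label and at 199, 221 and 195 CPM with the DMSO label, a change of 0.98 ± 0.07 (± SE, adjusted p = 9.5e-15). UQCR10 and UQCR11 changed by 0.75 (adjusted p = 1.4e-11) and 0.48 (adjusted p = 7.2e-08). UQCRB, a small subunit near a ubiquinone site, was the exception. It stood at 341, 382 and 387 CPM with the CIP label and at 629, 597 and 546 CPM with the DMSO label, a change of -0.68 ± 0.07 (± SE, adjusted p = 5.1e-11). UQCRHL, a near-identical copy of UQCRH, took only 0.69% of their summed CPM with the CIP label and 0.86% with the DMSO label, and its own call at 0.74 (adjusted p = 0.02) is uncertain because reads can be shared. CYCS, the cytochrome c that carries electrons from complex III to IV and takes part in apoptosis, stood at 242, 260.1 and 239.9 CPM with the CIP label and at 121, 130.3 and 126 CPM with the DMSO label. Its change was 0.98 ± 0.07 (± SE, adjusted p = 8.6e-15), close to that of UQCRQ, and RefSeq names 45 pseudogenes of it.

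Complex IV, cytochrome c oxidase, has nuclear subunits that occur as isoforms. COX7A2, the widely expressed form of subunit VIIa, stood at 662, 681 and 546 CPM with the CIP label and at 217, 216 and 224 CPM with the DMSO label, a log2 fold change of 1.52 ± 0.07 (± SE, adjusted p = 1.6e-19). The muscle form COX7A1 had 1 count with the CIP label and 4 counts with the DMSO label. COX7A2L, which joins complexes III and IV in supercomplexes, stood at 164, 181 and 144 CPM with the CIP label and at 114, 106 and 116 CPM with the DMSO label, a change of 0.54 ± 0.08 (± SE, adjusted p = 1.8e-07). COX6A1, the widely expressed form of VIa, stood at 135, 127 and 143 CPM with the CIP label and at 76.3, 83.2 and 84.9 CPM with the DMSO label, a change of 0.73 ± 0.08 (± SE, adjusted p = 3.1e-10), and COX7C stood at 625, 587 and 680.2 CPM with the CIP label and at 398, 443 and 388 CPM with the DMSO label, a change of 0.62 ± 0.07 (± SE, adjusted p = 3.7e-10). Groups did not overlap for any of the 4 genes, nor for 75.5% of all tested genes. For COX7C this was a condition of being named.

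Among complex IV members with counts in both groups, the largest fall was that of COX6C (chromosome 8, 99877865 to 99893707), a small membrane subunit. COX6C stood at 313, 305 and 315 CPM with the CIP label and at 835, 914 and 867 CPM with the DMSO label, a log2 fold change of -1.49 ± 0.06 (± SE, adjusted p = 4.9e-21). COX4I1, the widely expressed form of subunit IV, had 403 ± 5.16 CPM with the CIP label and 476 ± 22.9 CPM with the DMSO label (SD, n = 3 each), a change of -0.24 (adjusted p = 7.9e-04). COX7B and COX8A changed by -0.20 (adjusted p = 0.0068) and -0.15 (adjusted p = 0.036), and the call of COX8A was lost in 5 of 17 settings. COX6B1 and NDUFA4, a subunit once counted in complex I, changed by 0.19 (adjusted p = 0.0097) and 0.16 (adjusted p = 0.029), values that turned to -0.039 and -0.067 with library totals alone. COX8C, a form known from testis, was at 0 counts in each CIP-labelled library and had 18, 20 and 31 counts under the DMSO label. All 69 of its counts were under the DMSO label, so COX8C reached the minimum of 60 counts only through that group. Its call is therefore no independent sign of a fall. Against a floor of 3 counts over the group, it was at least 22.2-fold lower. COX8C is among the 20 falls, and without COX8C, UQCRHL and ATP5MGL 48 members rose and 19 fell. The other tissue-restricted forms, COX4I2, COX6A2, COX6B2 and COX7B2, were at or near 0 under both labels.

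Complex V, the ATP synthase, has a catalytic F1 head of 5 nuclear subunits, of which 3 rose, 1 fell and 1 was not called. ATP5F1A, the alpha subunit, stood at 653, 672 and 629.7 CPM with the CIP label and at 286, 249.6 and 251 CPM with the DMSO label, a log2 fold change of 1.31 ± 0.07 (± SE, adjusted p = 8.1e-19). ATP5F1B, the catalytic beta subunit, stood at 393, 357 and 372 CPM with the CIP label and at 229, 232 and 216 CPM with the DMSO label, a change of 0.73 ± 0.06 (± SE, adjusted p = 4.2e-12). Alpha and beta alternate in the head, and both rose without overlap between groups. ATP5F1C, the gamma subunit of the central stalk whose window is shown above, stood at 67.0, 69.4 and 76.5 CPM with the CIP label and at 104, 97.9 and 89.7 CPM with the DMSO label, a change of -0.45 ± 0.08 (± SE, adjusted p = 1.4e-05). ATP5IF1 is the inhibitor that binds the head when the gradient collapses. It stood at 244, 241 and 266 CPM with the CIP label and at 424, 464 and 409.7 CPM with the DMSO label, a change of -0.79 ± 0.07 (± SE, adjusted p = 1.0e-12), with no overlap.

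Of the 4 peripheral stalk subunits 2 rose and 2 were not called, and of 6 small membrane subunits 5 rose and 1 was not called. With library totals alone the stalk gave 2 higher and 2 lower, with a median log2 fold change of 0.033 against 0.26 with TMM, and the small membrane subunits 3 higher and 0 lower. ATP5MG, the g subunit, which helps synthase dimers form, stood at 1011, 922 and 1066 CPM with the CIP label and at 464, 509 and 477 CPM with the DMSO label, a log2 fold change of 1.05 ± 0.06 (± SE, adjusted p = 2.4e-16). ATP5MGL, a near-identical copy of it, had 3.96 ± 0.376 CPM with the CIP label and 1.94 ± 0.321 CPM with the DMSO label (SD, n = 3 each), a value that is uncertain because reads can be shared.

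The rotating c ring is encoded by ATP5MC1, ATP5MC2 and ATP5MC3, which give the same mature protein behind different import sequences. ATP5MC3 stood at 902, 881 and 958 CPM with the CIP label and at 1308, 1404 and 1305 CPM with the DMSO label, a log2 fold change of -0.55 ± 0.06 (± SE, adjusted p = 5.9e-10). ATP5MC2 stood at 944, 882 and 1033 CPM with the CIP label and at 579.9, 615 and 594 CPM with the DMSO label, a change of 0.68 ± 0.06 (± SE, adjusted p = 1.7e-11). ATP5MC1 stood at 459, 418 and 418 CPM with the CIP label and at 269, 258 and 271 CPM with the DMSO label, a change of 0.70 ± 0.06 (± SE, adjusted p = 8.3e-12). The genes thus moved in opposite directions, each without overlap between groups. In this 3′ counting a gene's length does not set its count, so the levels can be added. With TMM their sum was 2304, 2181 and 2409 CPM with the CIP label and 2157, 2277 and 2170 CPM with the DMSO label, and these ranges overlapped. With library totals alone each CIP-labelled sum lay below each DMSO-labelled one, so a steady total is not shown. The shares of the sum do not depend on the scaling. ATP5MC3 made up 39.8 ± 0.64% of the sum with the CIP label and 60.8 ± 0.78% with the DMSO label. ATP5MC2 made up 41.4 ± 1.29% against 27.1 ± 0.26%, and ATP5MC1 18.8 ± 1.31% against 12.1 ± 0.66% (SD, n = 3 each). RefSeq names 8 pseudogenes of ATP5MC1, 5 of ATP5MC2 and none of ATP5MC3, and their part in these shares was not tested.

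**Figure D4:**
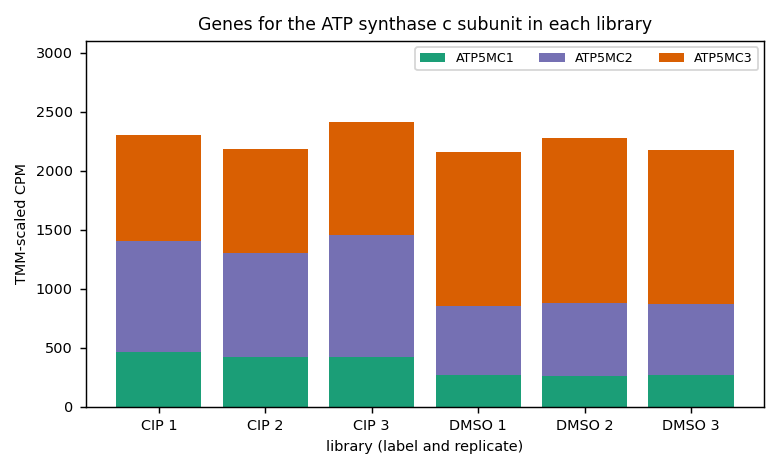
TMM-scaled CPM of the 3 genes of the ATP synthase c subunit, stacked, in each CIP-labelled and DMSO-labelled library. The bars reach similar heights with this scaling (2181 to 2409 CPM with the CIP label and 2157 to 2277 CPM with the DMSO label), while ATP5MC3, the upper part, is 39.8% of the sum with the CIP label and 60.8% with the DMSO label. With library totals alone the CIP-labelled sums were the lower ones.

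The 13 mitochondrially encoded subunits work beside these nuclear ones. Of them 6 rose, 4 fell and 3 were not called, where 34.9% of all tested genes rose and 38.2% fell. Their median log2 fold change of 0.15 turned to -0.08 with library totals alone (5 higher and 5 lower). Their summed level was 104924 to 115785 CPM with the CIP label and 80428 to 82040 CPM with the DMSO label. CYTB, the cytochrome b of complex III, stood at 6708, 7556 and 6703 CPM with the CIP label and at 1821, 1895 and 1682 CPM with the DMSO label, a change of 1.96 ± 0.06 (± SE, adjusted p = 4.6e-24). It rose beside nuclear core subunits of complex III that fell. ND3 of complex I changed by 1.15 (adjusted p = 1.2e-18), and ND4L and ND6 by -0.33 (adjusted p = 2.7e-04) and -0.67 (adjusted p = 8.1e-08). Mitochondrial transcripts overlap or are cut from shared precursors, so reads near their ends may not separate neighbours such as ND4L and ND4.

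Other genes that serve the chain are given by lists. Beside each list below stand the shares over all tested genes, 34.9% higher, 38.2% lower and 73.1% called either way. With library totals alone 26.9% of all tested genes were higher and 46.1% lower. Of 57 assembly factors 26 rose, 18 fell and 13 were not called, with a median log2 fold change of 0.23 that was -0.00095 with library totals alone (19 higher and 23 lower). SCO2, a copper chaperone for complex IV, had 96.7 ± 4.10 CPM with the CIP label and 30.6 ± 0.443 CPM with the DMSO label (SD, n = 3 each), a change of 1.66 (adjusted p = 1.7e-17). SURF1, another complex IV factor, changed by 1.401 (adjusted p = 1.9e-09). COX11, which delivers copper to the COX1 subunit, and SDHAF4, a factor for SDHA, changed by -1.13 (adjusted p = 4.6e-12) and -1.12 (adjusted p = 7.6e-06). Of 25 tested genes for coenzyme Q, haem A and iron-sulfur cofactors 12 rose, 6 fell and 7 were not called, with a median of 0.20 that turned to -0.03 with library totals alone (12 higher and 7 lower). GLRX5, which passes on iron-sulfur clusters, had 204 ± 14.9 CPM with the CIP label and 55.2 ± 3.33 CPM with the DMSO label (SD, n = 3 each), a change of 1.89 (adjusted p = 4.9e-21). COQ4, of coenzyme Q synthesis, changed by 1.63 (adjusted p = 1.0e-07), and COQ6 and COQ10B changed by -1.06 (adjusted p = 3.6e-06) and -0.91 (adjusted p = 7.4e-05).

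Of 22 tested regulators of respiratory chain genes 11 rose, 4 fell and 7 were not called, with a median log2 fold change of 0.45 (11 higher, 7 lower and 0.22 with library totals alone). ESRRA, the nuclear receptor ERR alpha, stood at 63.4, 58.0 and 50.2 CPM with the CIP label and at 15.1, 19.1 and 18.8 CPM with the DMSO label, a change of 1.70 ± 0.13 (± SE, adjusted p = 3.4e-14). TFB2M, a mitochondrial transcription factor, changed by 1.56 (adjusted p = 5.6e-07). PPARGC1A, the coactivator PGC-1 alpha that partners ERR alpha, went the other way. Its counts were 2, 1 and 1 under the CIP label and 324, 381 and 268 under the DMSO label. The ratio of summed counts, scaled by library, was 235-fold lower with the CIP label (95% counting interval 91.4 to 863). TOP1MT, the mitochondrial topoisomerase, changed by -0.66 (adjusted p = 5.3e-09).

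Of 23 tested genes of the tricarboxylic acid cycle and pyruvate dehydrogenase 6 rose, 11 fell and 6 were not called, with a median log2 fold change of -0.34 (3 higher, 14 lower and -0.57 with library totals alone). FH and CS, fumarase and citrate synthase, changed by 0.72 (adjusted p = 9.1e-09) and 0.67 (adjusted p = 6.4e-09). The falls took in enzymes as well as kinases. IDH3A changed by -1.01 (adjusted p = 1.7e-14), OGDH by -0.91 (adjusted p = 5.5e-07), IDH2 by -0.78 (adjusted p = 8.4e-13) and PDHA1 by -0.75 (adjusted p = 9.5e-12). The kinases PDK1 and PDK3, which switch pyruvate dehydrogenase off, had the largest falls among genes of the list with a mean of 10 CPM or more in the higher group. PDK2, below that level, was at 0 counts in each CIP-labelled library and had 28, 51 and 45 counts under the DMSO label. PDK1 stood at 79.4, 64.5 and 83.4 CPM with the CIP label and at 844, 866 and 828 CPM with the DMSO label, a change of -3.48 ± 0.08 (± SE, adjusted p = 7.0e-29), and PDK3 changed by -1.92 (adjusted p = 3.7e-16). Of 36 tested genes of import and cristae 22 rose, 5 fell and 9 were not called, with a median of 0.38 (17 higher, 13 lower and 0.15 with library totals alone). TIMM8B and TOMM22, import factors, changed by 1.24 (adjusted p = 2.7e-15) and 1.22 (adjusted p = 3.6e-17), and VDAC3, an outer membrane channel, and HSPA9, the import chaperone, by -1.10 (adjusted p = 5.5e-15) and -0.74 (adjusted p = 6.5e-10).

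The position of the members in the genome was examined after their values were seen. All 4 members on chromosome 8, NDUFB9, COX6C, UQCRB and CYC1, fell, and among the other 420 tested genes of chromosome 8 76.9% fell and 9.52% rose, with a median log2 fold change of -1.04. Both members on chromosome 18, NDUFV2 and ATP5F1A, rose, and among the other 175 tested genes there 69.7% rose and 17.7% fell, with a median of 1.04. Without the chromosome 8 members, 50 members rose and 16 fell, with a median of 0.44. TOP1MT and VDAC3, among the falls above, also lie on chromosome 8.

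Each member was then set beside the median of the 20 nearest tested genes on each side. Over 83 members (COX8C left out) Pearson's r was 0.61 and Spearman's rho 0.55, and off chromosome 8 (79 members) both were 0.49. With COX8C, whose fitted change rests on 0 counts in a group, r was 0.33 and rho 0.53 over all 84 members, and 0.23 and 0.47 off chromosome 8 (80 members). With 10 neighbours on each side r was 0.58, and with 40 it was 0.60. These are descriptions over genes, which are not independent replicates: all values come from the same 6 libraries, and nearby members share neighbours. COX5A and NDUFS1 are among the exceptions, with log2 fold changes of -0.10 and 0.09 between neighbours that fell and rose. Some called members went against their neighbours, such as COX7C (0.62, neighbours at -0.67) and SDHA (-0.27, neighbours at 0.42). The part of chromosomal position in the members' values was not tested.

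**Figure D5:**
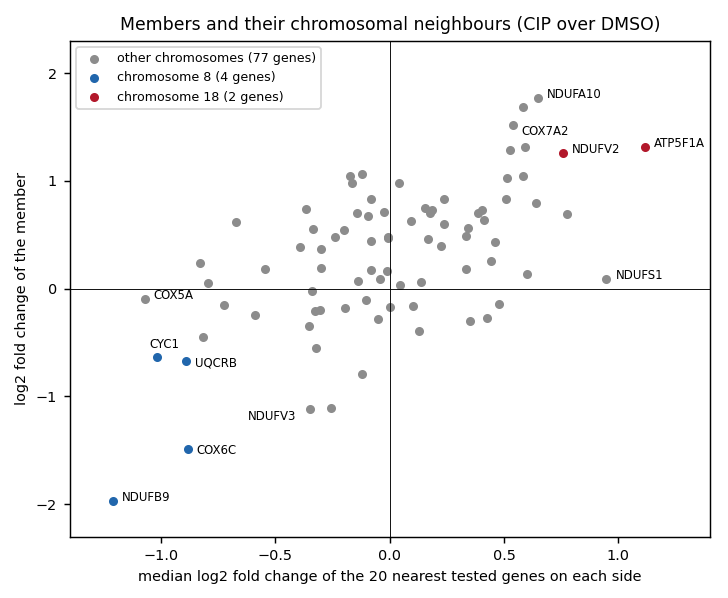
Log2 fold change (CIP over DMSO) of each of 83 members against the median log2 fold change of the 20 nearest tested genes on each side. The 4 chromosome 8 members lie at the lower left, the 2 chromosome 18 members at the upper right, and the remaining 77 scatter between them (r = 0.61 over the 83).

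The members are short genes in coding sequence, with a median coding length of 442.5 bases in 82 members with a length, against 1431 bases in other tested genes. Of 20 members with at most 300 coding bases 14 rose, against 44.3% of other genes of that length. Of 38 members with more than 300 and at most 600 bases 26 rose, against 40.8%. Of 14 members over that and up to 1200 bases 4 rose and 4 fell, where 36.4% of other genes rose and 38.5% fell. Of 10 longer ones, up to 2400 bases, 4 rose and 5 fell, where 36.8% of other genes rose and 36.6% fell.

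Limits of counting touch many members. Of 84 members, 34 overlap another annotated gene, and 52 have pseudogenes that RefSeq names after them. Neither the strand setting nor the handling of multiply matching reads was given in the sources used here, so reads of such neighbours and copies cannot be separated.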

How the data were processed

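The files hold whole-number counts per gene symbol, 1 library each, deposited by the authors as raw values, to judge by their unequal whole-number totals. Per the submitters' processing notes, bcl2fastq 2.20.0.422, fastp, STAR, HTSeq and the build GRCh38 were used, with no role or setting. No annotation release is given in the sources used here. Libraries came from total RNA with a Lexogen QuantSeq kit, per the labels' protocols. Such 3′ counting does not depend on transcript length. Use of molecular identifiers is not stated, so the interval and floors given reflect counting error alone.

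Genes were tested with edgeR 4.0.16 in R 4.3.3 (quasi-likelihood test, robust, filterByExpr, TMM, group alone, 2-sided) on all 6 libraries, with Benjamini-Hochberg adjustment over 12844 genes and calls at adjusted p under 0.05. All adjusted p-values in the text come from this fit unless another setting is named. With the CIP label the TMM factors were 0.914 to 0.930, and with the DMSO label 1.07 to 1.09. SE is the log2 fold change divided by the square root of F. Exact permutation of 3 against 3 libraries cannot go below p = 0.10. Library pairs within groups differed beyond sampling noise (chi-square per gene 3.90 to 8.14), and all were kept. The steps were tested on simulated counts.

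Positions and named pseudogenes come from RefSeq on GRCh38.p14, coding lengths from GENCODE v29. The members, the 6 pathway lists and the 6 marker lists were chosen with earlier results of these data known. Named genes follow a rule: up to 4 called members per complex and direction with the largest changes, a mean of 10 CPM or more where higher, and no overlap between groups, plus isoform, core and regulatory subunits whatever their values, and up to 2 called genes per pathway list and direction at 10 CPM. Not every gene that the rule takes in is reported here. UQCRC1, UQCRHL, ATP5MGL, COX5A, PDK2, IDH3A, OGDH, IDH2 and PDHA1 were named after their values were seen. Alternatives were other scalings, filters, dispersion, DESeq2 1.42.0, limma-voom (limma 3.58.1), thinning, leaving out mitochondrial genes or each library, a replicate block, and other thresholds.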

Additional observations from a re-analysis of the deposited data

How the results depend on the processing

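Of the 84 members, 60 kept their call in all 17 alternative fits, and 0 turned from a rise to a fall or back. Counts of rises were 46 to 50 and of falls 18 to 22 under other scalings, filters, dispersion fitting, DESeq2, limma-voom, thinning and without mitochondrial genes, except with library totals alone (40 and 29). Raising the minimum to 600 counts gave 47 and 19, an adjusted p under 0.01 gave 45 and 16, and a test for a change beyond 1.2-fold gave 44 and 11. Leaving out each library gave 45 to 49 rises, 16 to 21 falls and a median of 0.36 to 0.43. With library totals alone the members' median was 0.16, and 12 members turned from above to below 0: 4 had been called higher, 3 became called lower, and 0 were called both ways. Among those named in the text, NDUFS3, NDUFS1, COX6B1 and NDUFA4 turned to -0.10, -0.14, -0.039 and -0.067 (adjusted p 0.16 to 0.59). This setting moves the median of all tested genes by -0.23. Genes of the nuclear pathway lists were called higher 62 times and lower 64 times under it, against 77 and 44, and 71 to 78 and 39 to 46 in the other settings. The calls of SDHC, NDUFA4, COX8A and UQCRHL were lost in 8, 9, 5 and 5 of 17 settings. With a replicate block 48 members rose and 18 fell. Deviations of same-numbered libraries correlated at -0.03 to -0.01, and those of differently numbered ones at -0.01 to 0.03. With 3 libraries per group this cannot settle whether the numbers pair samples. Thinly counted members such as SDHD and COX8C are limited by depth.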
